A study of Equus caballus with 12 samples.

Results

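The genes described here code for the enzymes that attach ubiquitin to proteins and remove it again. They were found by name: every gene of the table was taken whose identifier the study's own gene lists pair with a symbol of the UBE2, UBE3, UBR, CUL, RNF, TRIM, FBXO, FBXW or FBXL families, or with USP followed by a digit, leaving out 1 F-box gene. This gave 71 members among the 11425 genes of the table, of which 2627 carried a name. By class they were 13 E2 conjugating enzymes, 1 HECT ligase, 4 cullins, 15 RNF proteins, 6 TRIM proteins, 14 F-box proteins and 18 USP deubiquitinases, and no UBR ligase was among the named genes.

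All 12 libraries came from pools of horse oocytes (Equus caballus) that had reached metaphase II in vitro, and the study asked how the mRNA profile differs when oocytes are vitrified before or after that step. FR oocytes (n = 5) were fresh: they were matured in vitro, denuded of cumulus cells, checked for a polar body and stored, with no vitrification. VIM oocytes (n = 4, called VGV in the sample labels) were vitrified immature with their corona radiata, warmed, and then matured and denuded. VMAT oocytes (n = 3) were matured and denuded first, and were then vitrified and warmed before storage. The oocytes were collected post-mortem, each library is a pool, and nothing used here says which animals went into which pool, so p values measure the spread between pools. In pooled RNA, fewer oocytes that hold a transcript and less of it in each oocyte cannot be told apart. Values below describe libraries, and a low count is not read as absence of a transcript from the oocytes.

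Ubiquitin is handed from an E1 activating enzyme to an E2 conjugating enzyme, and an E3 ligase brings the loaded E2 to the protein that is to be tagged. RING ligases such as RNF and TRIM proteins promote the direct transfer from the E2, HECT ligases carry ubiquitin themselves, and cullin ligases are assembled on a scaffold with exchangeable substrate receptors, among them the F-box proteins that join CUL1 through SKP1. Deubiquitinases such as the USP family take ubiquitin off again. In oocytes, timed protein destruction through ubiquitin drives the exit from meiotic arrests, and stored maternal mRNAs supply the enzymes because a fully grown oocyte makes almost no new RNA.

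The library kit counts the 3′ end of transcripts, so levels below are not divided by transcript length. They are the deposited normalized counts, which are reads divided by 1 size factor for each library. The library with the fewest reads on genes was VMAT replicate 1 (1636620) and that with the most was VMAT replicate 2 (12166950), and the members took between 1.28% and 1.83% of them. In the same order, the size factors of these libraries were 0.321 and 7.98, so that a normalized count of 30 stands for 9.64 reads in the first and 240 reads in the second. Of 15 oocyte markers 12 had a name and a value, and their summed normalized count lay between 8305 and 17335 in every library. Single markers were less even. ZP4, GDF9, KPNA7, BTG4, NPM2 and H1-8 were at 30 normalized counts or more in all 12 libraries. BMP15 and WEE2 were so in 10, ZP1, ZP2 and ZAR1 in 9, and OOSP2, with a lowest value of 1.14, in 7. HAS2 was the only one of 18 cumulus and granulosa cell markers with a name, at 254 to 2144 normalized counts, and none of 4 leukocyte markers was named, so other cells were hardly checked.

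In a given library most members were either at high counts or almost missing. Of the 852 values (71 members in 12 libraries), 583 were at 100 normalized counts or more, 154 were under 10 and 115 lay between. The split was not particular to the members. For members with a median of at least 100, 79.7% of values were at 100 or more and 9.39% under 10. For all genes with such a median these shares were 79.4% and 9.93%. A level of 30, chosen after the values were seen, is used below to count libraries. At this level 16 members were present in all 12 libraries, 33 in 9 to 11, 12 in 6 to 8 and 10 in 5 or fewer. Among the 55 members with a median of at least 100 normalized counts, 29.1% were at 30 or more in every library, and among all 2141 genes with such a median 36.6% were.

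**Figure D1:**
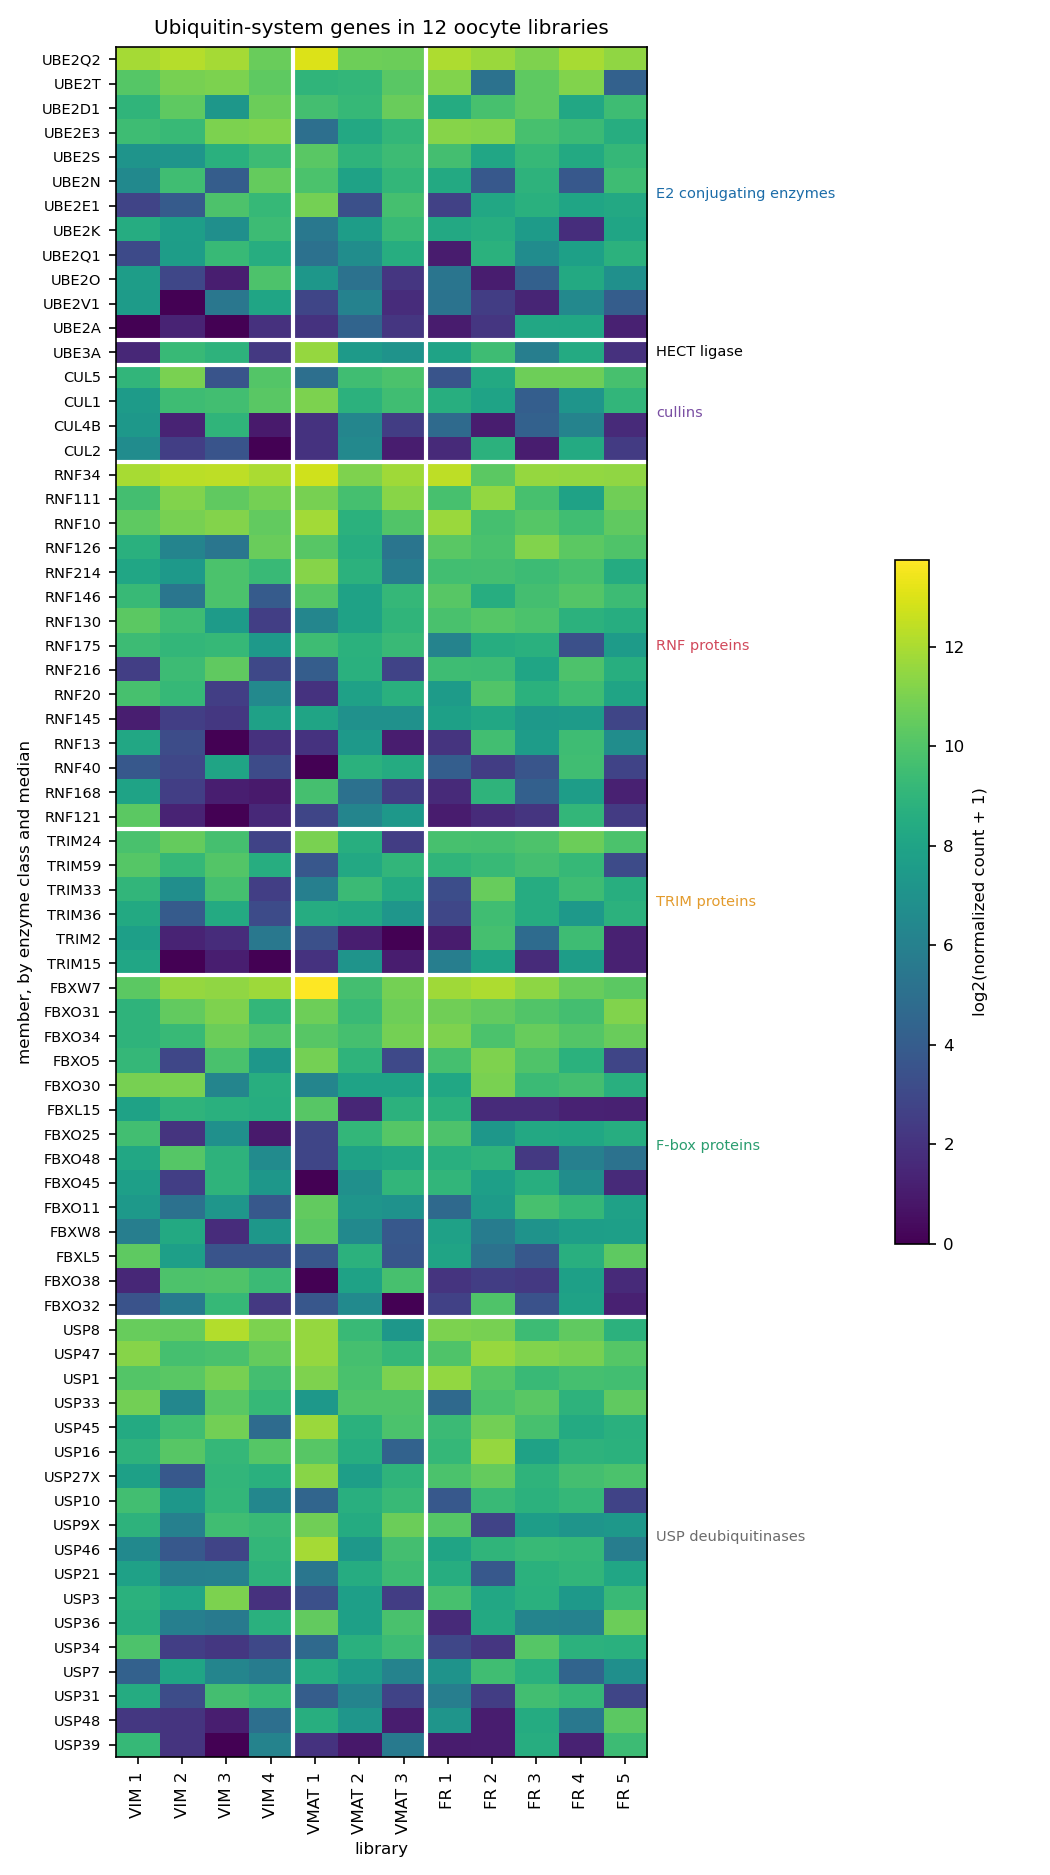
Normalized counts of the members, 1 left out (rows, by enzyme class and then by median), in the 12 libraries (columns), as log2(normalized count + 1). UBE2Q2 and RNF34 stay bright across all 12 libraries, whereas UBE2A passes 30 normalized counts in 2 of them.

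Among the E2 conjugating enzymes, UBE2Q2, a long member of the family, was the most abundant, with a median of 3546 normalized counts. UBE2Q2 was measured at 3792, 4707, 3827 and 1547 in the VIM libraries (replicates 1 to 4, an order kept below), at 8461, 1659 and 1601 in VMAT, and at 4175, 3300.0, 2138, 3996 and 2812 in FR. All 3 groups overlapped, and the highest VMAT library lay above every other library in normalized counts. As a share of each library's reads, UBE2Q2 was slightly higher in FR replicate 4 than in that VMAT library. UBE2D1, an E2 that serves many ligases, and UBE2S, which extends ubiquitin chains started by the anaphase-promoting complex, were also at 30 or more in every library, with ranges of 153 to 1618 and 138 to 1207.

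UBE2T, the E2 of the Fanconi anaemia DNA repair pathway, had the second highest median of its class, 1243 normalized counts. It was at 1133, 1959, 2088 and 1271 in VIM, at 507, 539.5 and 1214 in VMAT, and at 2250.1, 35.5, 1284, 2249 and 18.6 in FR. FR replicates 2 and 5 thus held almost none of a transcript that the other FR libraries held at 1284 or more. UBE2K and UBE2Q1 also dropped out of single libraries: UBE2K was at 2.52 in FR replicate 4 and at 43.6 to 679.6 in the other 11, and UBE2Q1 was at 7.37 in VIM replicate 1, at 1.08 in FR replicate 1, and at 34.2 to 613 in the rest.

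UBE2E1 and UBE2E3 are close paralogs whose reads the counting could have divided between them, so their single values are uncertain. UBE2E3 was at 30 or more in all 12 libraries and UBE2E1 in 8, so that 4 libraries reached the level with UBE2E3 alone and none with UBE2E1 alone. The same held for UBE2Q2 and UBE2Q1, where 10 libraries had both and 2 had only UBE2Q2. UBE2N, which builds chains that signal rather than destroy, can work with the catalytically inactive UBE2V1 as partner. Both were at 30 or more in 4 libraries, UBE2N alone in 5, UBE2V1 alone in 2, and neither in FR replicate 2.

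UBE3A was the only HECT ligase the name rule found; its loss in neurons causes Angelman syndrome. UBE3A (ENSECAG00000004792) was at 1.84, 609.6, 464 and 3.91 normalized counts in VIM, at 3012, 179 and 131 in VMAT, and at 253, 705, 57.7, 332 and 2.86 in FR. Both ends of this range, 1.84 and 3012, occurred among vitrified oocytes, and it was one of the 3 most variable members with a median of at least 100.

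Of the cullins, the scaffolds of modular ligases, CUL5 and CUL1 were the more abundant, with medians of 805 and 498 normalized counts. CUL1, which carries F-box proteins, was at 184, 720.5, 758 and 1209.6 in VIM, at 2094, 463 and 749 in VMAT, and at 391, 251, 16.2, 143 and 533 in FR. The 3 VMAT libraries lay above 4 of the 5 FR libraries. CUL5, which carries SOCS-box proteins, was under 30 in VIM replicate 3 (10.8) and FR replicate 1 (10.8) and between 31.1 and 2016 in the other 10. CUL4B and CUL2 were at 30 or more in 4 libraries each, and VIM replicate 1, VMAT replicate 2 and FR replicate 4 reached the level with both. CUL4B, a scaffold of ligases that act on chromatin, ranged from 0.978 to 518.

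The F-box protein with the highest median was FBXW7, which recruits cyclin E and other phosphorylated proteins to the CUL1 ligase. FBXW7 was at 1266, 3055, 2793 and 3392 normalized counts in VIM, at 13732, 785 and 1874 in VMAT, and at 3537, 4313, 2673, 1524 and 1231 in FR. VMAT held both the highest and the lowest library in normalized counts. As a share of each library's reads, FBXW7 was still highest in VMAT replicate 1, but it was lowest in FR replicate 5. FBXO31, which targets cyclin D1, and FBXO34 were the steadiest of the class: over the 12 libraries FBXO31 ranged from 489.9 to 2239.9 and FBXO34 from 484 to 2169. Together with USP1 these were the 3 least variable members with a median of at least 100, each with a highest value 4.47 to 4.57 times the lowest (1 added to both).

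FBXO5 (EMI1), an inhibitor of the anaphase-promoting complex, had a median of 527 but was under 10 in VIM replicate 2 (6.52), VMAT replicate 3 (7.07) and FR replicate 5 (6.44). A library of each group thus lacked it almost wholly. FBXO38 (ENSECAG00000016193) was at 1.84, 945, 983 and 655 in VIM, at 0, 239 and 854 in VMAT, and at 3.23, 4.58, 3.92, 228 and 2.15 in FR. In FR, 4 of the 5 libraries were at 4.58 or less, but VIM replicate 1 and VMAT replicate 1 did too. FBXO32 (atrogin-1, known from muscle wasting) was the rarest F-box gene, at 30 or more in 5 libraries.

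RNF34, a RING ligase known to target p53, had the highest median of all 71 members, 3734 normalized counts. RNF34 was at 3993, 5136, 5305 and 4121 in VIM, at 6880.2, 2152 and 3475 in VMAT, and at 5355, 1265, 3016, 2892 and 2778 in FR. Every VIM library lay above 4 of the 5 FR libraries, and FR replicate 1 lay above all 4 VIM libraries. RNF111 (Arkadia), which promotes signalling of the transforming growth factor β family, ranged from 241 to 2902, and RNF10 from 445 to 3709. RNF214 and RNF126 completed the 5 RNF proteins present in all 12 libraries.

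RNF20 and RNF40 are the subunits of 1 ligase that attaches ubiquitin to histone H2B, and UBE2A is an E2 that works with it. RNF20 was at 30 or more in 10 libraries and RNF40 in 4. Both reached the level in 3 libraries and neither did in VMAT replicate 1. RNF40 was at 12.9, 6.52, 258 and 7.82 in VIM, at 0, 431 and 344 in VMAT, and at 16.2, 4.58, 11.2, 731 and 5.73 in FR. A single VIM library, a single FR library and 2 VMAT libraries were high, and the other 8 were at 16.2 or less. UBE2A was at 30 or more in 2 libraries, and RNF20 was at that level in both.

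The TRIM proteins had none present in all 12 libraries. TRIM24 and TRIM33, which bind chromatin, and TRIM59 were at 30 or more in 10 each, with medians of 867, 375 and 555. TRIM24 was at 883, 1443, 841 and 5.87 in VIM, at 2057, 397 and 4.72 in VMAT, and at 852, 828, 946, 1603 and 931 in FR. All 5 FR libraries were at 828 or more, and VIM replicate 4 and VMAT replicate 3 were at 5.87 or less. TRIM15 had the lowest median of all members, 2.68, and TRIM2, a ligase known from neurons, had a median of 5.87.

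Of the 18 USP genes, USP8, USP47 and USP1 were present in every library and 11 more in 9 to 11 libraries. USP8, which acts on endosomes, was at 1521, 1434, 4641 and 2114 normalized counts in VIM, at 3012, 629.9 and 156 in VMAT, and at 2059, 1973, 679.6, 1326 and 447 in FR. In normalized counts the lowest and the second highest of the 12 libraries were both VMAT libraries. As shares of each library's reads, VMAT replicate 3 was still the lowest. VMAT replicate 1 then lay below VIM replicates 1, 3 and 4 and FR replicates 1 and 2. USP1, which takes ubiquitin off DNA repair proteins, stayed between 642 and 2896, and USP47 between 574 and 3180. USP7, which acts on p53 and its ligase MDM2, was low for its class, with a median of 124. USP39, a splicing factor without deubiquitinase activity, was the rarest, with a median of 3.19 and 5 libraries at 30 or more.

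**Figure D2:**
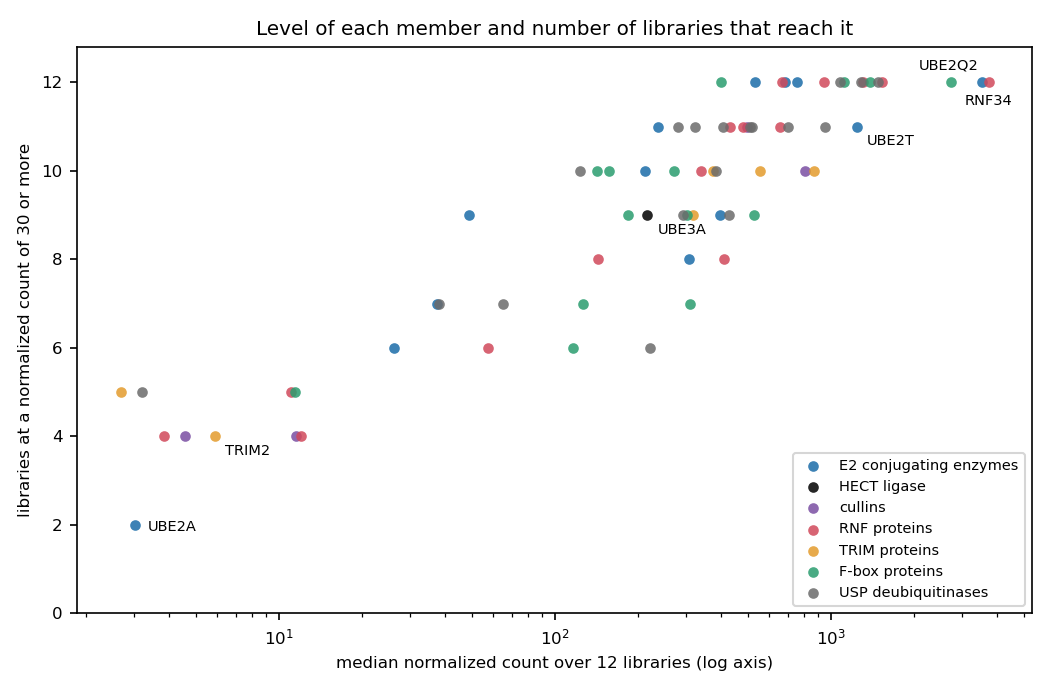
Median normalized count over the 12 libraries (log axis) of each member against the number of libraries in which it was at 30 or more, coloured by enzyme class. The 16 members at 12 libraries belong to 4 classes, with RNF34 and UBE2Q2 at the right, and UBE2A stands lowest with 2 libraries.

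The deepest libraries held the most members. VMAT replicate 2, the deepest, held 66 members at 30 or more, and FR replicate 4, the next deepest, held 65. VMAT replicate 1 and VIM replicate 2, the shallowest, held 48 each, and the other 8 libraries held 49 to 59. In VMAT, 10 members were at 30 or more only in replicate 2, among them CUL2, CUL4B, RNF13, RNF216, FBXL5 and USP3, while 10 other members were under 30 only in replicate 1. Counted by share of a library's reads instead, 66 members in VMAT replicate 2 and 39 in VMAT replicate 1 reached 0.002%. The part of depth in the groups' values was not tested.

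The size factors also left the totals of the VMAT libraries apart. For the 16 members present everywhere, the summed normalized count was 51594 in VMAT replicate 1 and 12154 in VMAT replicate 2, and VMAT replicate 1 was the highest of the 12 libraries for 6 of the 16. As shares of reads the same sums were 1.01% and 0.798%, and VMAT replicate 1 was the highest for 2 members. The median of the ratio of the highest to the lowest VMAT library was 4.35 over these members in normalized counts and 3.02 in shares of reads. The VMAT mean of FBXW7 rests largely on replicate 1: its mean ± SD of 5464 ± 7182 (n = 3) includes the value of 13732 there.

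**Figure D3:**
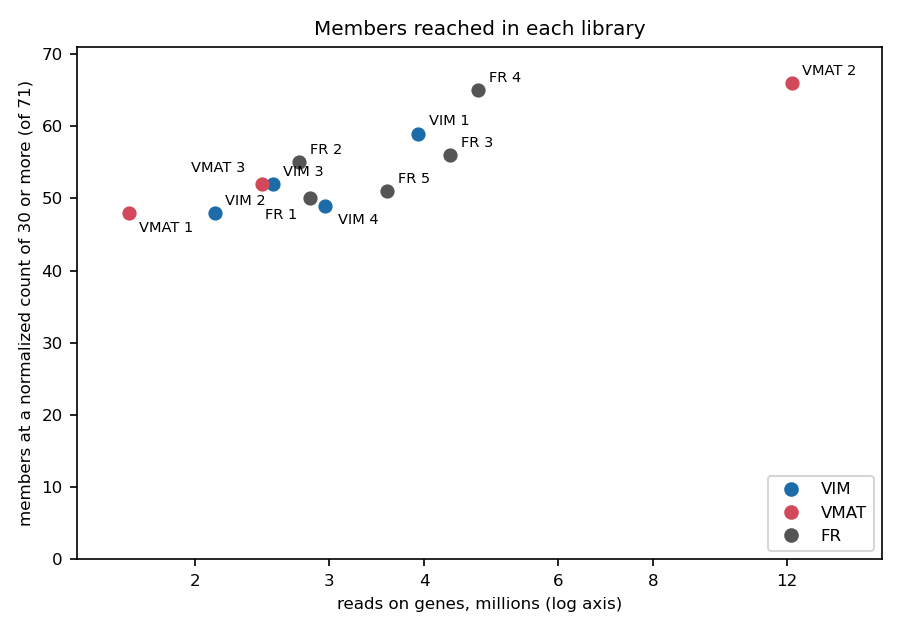
Reads on genes of each library (log axis) against the number of the 71 members at 30 normalized counts or more, coloured by group. The counts run from 48 in VMAT 1 and VIM 2 to 66 in VMAT 2.

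Before the comparisons, the source of the names limits what directions can say. The lists that gave the names are ordered by the authors' own fold changes and were available here only in part, so a gene that is lower in vitrified oocytes was more likely to have a name. Among genes with a median of at least 100, 88.8% of those with a log2 fold change under -1 in VIM vs. FR were named, against 63.2% of those above 1. In VMAT vs. FR these shares were 90.5% and 66.7%. The 60 members named in the ordered lists had a median log2 fold change of -0.76 in VIM vs. FR, and the 11 named only in other lists had 1.27. Counts of members that are higher or lower, and medians over members, are thus given as description only.

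In VIM vs. FR, which asks what differs when oocytes are vitrified before maturation, no member passed the thresholds (Benjamini-Hochberg adjusted p of 0.05 or less and a log2 fold change of 1 or more either way) with limma on log2(normalized count + 1). This was 0 of 71 members, beside 0% of the 7351 genes tested. The smallest adjusted p of a member by limma was 0.902. At an unadjusted p under 0.05 limma gave 5 members, FBXL15 higher in VIM and RNF126, USP27X, FBXO25 and RNF146 lower, beside 3.78% of all genes, that is 7.04% of members. This count was 8 without VIM replicate 1 and 2 without VIM replicate 2. By edgeR 0 members passed, beside 0%, and 3 had an unadjusted p under 0.05, beside 16.8% of genes. DESeq2 on the recovered reads called 2 members, UBE2A and USP48, both lower in VIM, beside 6.91% of all genes, and 3 members had an unadjusted p under 0.05 there, beside 12.9%. The median log2 fold change was -0.44 over members and -0.12 over all genes.

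FBXL15 (ENSECAG00000000576), a substrate receptor of the CUL1 ligase, had the smallest limma p of the members in VIM vs. FR. It was at 243, 489, 425 and 375 normalized counts in VIM, at 1142, 1.75 and 457 in VMAT, and at 444, 2.29, 2.24, 1.51 and 1.43 in FR. FR replicates 2 to 5 and VMAT replicate 2 held almost none, while FR replicate 1 held as much as the VIM libraries, so the groups overlapped. The difference was 5.58 ± 1.99 on the log2 scale (SE; limma p = 0.00992, Benjamini-Hochberg adjusted p = 0.902; exact two-sided permutation p = 0.0397 over 126 splits). In FR replicates 2 to 5 it had 2 to 4 reads.

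RNF126 (ENSECAG00000026845), a ligase that helps to clear misfolded proteins, was at 421, 73.3, 41.0 and 1553 normalized counts in VIM, at 1154, 376 and 38.9 in VMAT, and at 1213, 897, 2267, 1228 and 1000.0 in FR. No FR library was under 897, and 3 of 4 VIM and 2 of 3 VMAT libraries were at 421 or less. The log2 difference was -2.55 ± 0.99 in VIM vs. FR (SE; limma p = 0.0170, adjusted p = 0.902; exact permutation p = 0.0397) and -2.27 ± 1.08 in VMAT vs. FR (limma p = 0.0426, adjusted p = 0.950; exact permutation p = 0.0536). Both comparisons use the same FR libraries.

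USP27X (ENSECAG00000009308), a deubiquitinase, was at 224, 13, 529 and 420.5 in VIM, at 2570.4, 205 and 495 in VMAT, and at 913, 1459.5, 489, 798 and 933 in FR. Only VIM replicate 3 reached the range of the FR libraries. Its log2 difference in VIM vs. FR was -2.41 ± 1.08 (SE; limma p = 0.0359, adjusted p = 0.902; exact permutation p = 0.0159, where the smallest possible is 0.00794). FBXO25 (ENSECAG00000023166) was at 756, 3.26, 121 and 0.978 in VIM, at 6.22, 539 and 1104 in VMAT, and at 952, 156, 319, 287 and 375 in FR. All 5 FR libraries held it, and 2 VIM libraries and 1 VMAT library did not.

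UBE2A and USP48, the members that DESeq2 called here, had at most 3 and 32 reads in a VIM library and at most 567 and 1720 in an FR library, respectively. UBE2A (ENSECAG00000018929) had 0, 1, 0 and 3 reads in VIM, 1, 162 and 3 reads in VMAT, and 1, 3, 541, 567 and 2 reads in FR. FR replicates 3 and 4, at 303 and 286 normalized counts, were the only libraries at 30 or more, and the other 3 FR libraries were as low as VIM. In the libraries with 0 reads up to 3 reads are allowed, which is 1.84 normalized counts in VIM replicate 1 and 3.62 in VIM replicate 3 (counting error only). DESeq2 gave an adjusted p of 0.0157, limma an unadjusted p of 0.124. Without FR replicate 3 or FR replicate 4 DESeq2 returned no adjusted p for UBE2A.

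USP48 (ENSECAG00000012657), a deubiquitinase, was at 3.68, 3.26, 1.21 and 31.3 normalized counts in VIM, at 392, 150.3 and 1.18 in VMAT, and at 144, 1.14, 355, 44.9 and 1231 in FR. VIM lay below 4 of the 5 FR libraries, and FR replicate 2 was as low as the lowest VIM library. The adjusted p was 0.0104 by DESeq2 and 0.281 by edgeR, and by DESeq2 it was 0.196 without FR replicate 5.

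Vitrification after maturation was compared in VMAT vs. FR. Limma again called 0 of 71 members, beside 0% of the 8305 genes tested, with a smallest adjusted p of 0.950 among members. At an unadjusted p under 0.05 there were 5 members, beside 3.62% of all genes: RNF216, USP3, UBE2E3 and RNF126 were lower in VMAT and USP9X was higher. This count was 3 without FR replicate 2, 3 without FR replicate 4 and 2 without VMAT replicate 3. By edgeR 0 members passed, beside 0.012% of genes, and 1 member had an unadjusted p under 0.05, beside 13.6%. DESeq2 called 1 member, TRIM2, beside 4.3% of genes, and 2 had an unadjusted p under 0.05, beside 10.8%. The median log2 fold change was -0.15 over members and 0.01 over all genes.

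RNF216 (ENSECAG00000013171), a ligase of the RING-between-RING type, was at 15.6, 429 and 5.90 normalized counts in VMAT, at 706, 697, 267, 967 and 394 in FR, and at 4.91, 685, 1344 and 6.84 in VIM. The 5 FR libraries all held it, and VMAT replicates 1 and 3 and VIM replicates 1 and 4 nearly lacked it. The log2 difference in VMAT vs. FR was -3.91 ± 1.52 (SE; limma p = 0.0142, adjusted p = 0.950; exact permutation p = 0.0536). VMAT replicate 2, the VMAT library that did hold it, was the deepest.

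USP3 (ENSECAG00000016660), which removes ubiquitin from histone H2A, followed the same libraries in VMAT: it was at 9.34, 218 and 4.72 there, at 849, 299.7, 427, 169.5 and 631 in FR, and at 432, 285, 2079.9 and 2.93 in VIM. VMAT replicate 2 lay within the FR range and the other VMAT libraries below it. Its log2 difference was -4.13 ± 1.63 (SE; limma p = 0.0157, adjusted p = 0.950; exact permutation p = 0.0357, where 0.0179 is the smallest possible). Without VMAT replicate 2 DESeq2 called 4 members, FBXL5, RNF13, RNF216 and USP3, all lower in VMAT, and no longer TRIM2, while its count over all genes went from 357 to 707.

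TRIM2 (ENSECAG00000020605) was at 9.34, 1.25 and 0 normalized counts in VMAT (3, 10 and 0 reads), at 1.08, 828, 27.4, 709 and 1.43 in FR, and at 219, 1.63, 2.41 and 44.0 in VIM. FR replicates 2 and 4 were high and FR replicates 1 and 5 were as low as VMAT. DESeq2 gave an adjusted p of 0.0309 and limma an unadjusted p of 0.168. Without VMAT replicate 2 or VMAT replicate 3 the DESeq2 adjusted p was 0.0710 or 0.0918, and without FR replicate 2 or FR replicate 4 DESeq2 gave none.

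Groups that did not overlap in normalized counts were counted too. In VIM vs. FR there was no such member, beside 1.59% of all genes. In VMAT vs. FR there were 2 (3.19% of all genes), named here after their values were seen. FBXO30 was at 74.7, 255 and 254 normalized counts in VMAT and at 292, 2002, 672, 810.2 and 412 in FR, so VMAT was lower. RNF175 was at 700.2, 443 and 636 in VMAT and at 71.2, 377, 418, 9.08 and 184 in FR, so VMAT was higher. As shares of each library's reads, both members overlapped between VMAT and FR. For FBXO30, VMAT replicate 2 then lay above FR replicates 1 and 5. For RNF175, VMAT replicate 1 then lay below FR replicate 3. The exact permutation p was 0.0357 for FBXO30 and 0.107 for RNF175. Neither member passed an adjusted threshold in any of the 3 tools.

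**Figure D4:**
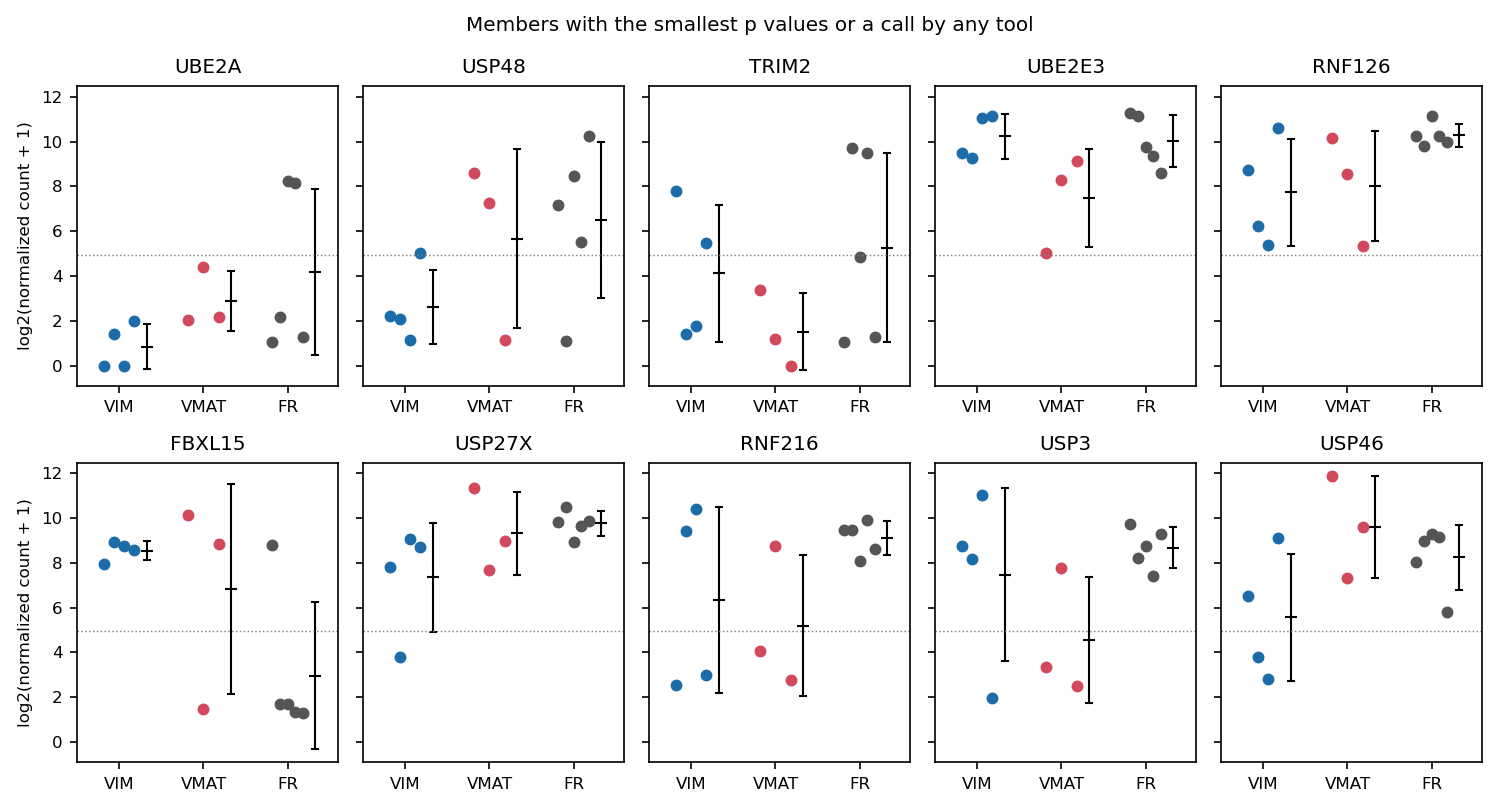
Each library's log2(normalized count + 1) for 10 members in VIM (n = 4), VMAT (n = 3) and FR (n = 5), with the mean and SD as bars at the right of each group and a dotted line at a normalized count of 30. In FBXL15 a single FR library (444) sits with the VIM libraries, and in UBE2A the FR libraries split into 303 and 286 against 3 values under 4.

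VIM vs. VMAT compares the times of vitrification directly. No member was called by limma (smallest adjusted p 0.967; 0% of the 7627 genes tested), by edgeR (0.0131% of genes) or by DESeq2 (3.93% of genes). At an unadjusted p under 0.05 limma gave 2 members, USP46 and UBE2E3, beside 2.98% of genes, edgeR 0, beside 10.8%, and DESeq2 7, beside 11.1%. The limma count was 4 without VIM replicate 2, 0 without VIM replicate 3 and 1 without VMAT replicate 3. The median log2 fold change was -0.19 over members and -0.08 over all genes.

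UBE2E3 (ENSECAG00000007233) was the only member whose groups did not overlap and whose medians lay at least 4-fold apart in any comparison. Between VIM and VMAT, 1.06% of all genes had this pattern with VIM higher and 2.19% with VIM lower. Against FR, the shares of genes higher and lower were 1.37% and 0.626% for VMAT and 0.544% and 0.354% for VIM. A single member of 71 is thus not read as setting the members apart from other genes. UBE2E3 was at 716, 608, 2108 and 2238 normalized counts in VIM and at 31.1, 313 and 557 in VMAT, with FR at 2456, 2235, 857, 651 and 382. In normalized counts all VIM libraries lay above all VMAT libraries, and the FR libraries spanned the whole VIM range. As shares of each library's reads, VIM replicate 2 lay below VMAT replicates 2 and 3, so that VIM and VMAT overlapped. The log2 difference of VIM over VMAT was 2.75 ± 1.31 (SE; limma p = 0.0375, adjusted p = 0.967; exact permutation p = 0.0286, the smallest possible with 35 splits). That of VMAT vs. FR was -2.54 ± 1.16 (limma p = 0.0356, adjusted p = 0.950; exact permutation p = 0.0536). Its close paralog UBE2E1 was at 6.14, 14.7, 976 and 600.4 in VIM and at 1855, 9.27 and 821 in VMAT. Summed over both paralogs, a step added after seeing the data, the levels were 722, 623, 3084 and 2839 in VIM and 1886, 322 and 1377 in VMAT, so that the groups overlapped.

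USP46 (ENSECAG00000009006), a deubiquitinase, was at 90.9, 13, 6.03 and 556 in VIM, at 3734, 161 and 786 in VMAT, and at 261, 507, 623, 563 and 55.1 in FR. VIM replicates 1 to 3 lay below all VMAT libraries and VIM replicate 4 lay among them. The log2 difference of VIM over VMAT was -4.04 ± 1.84 (SE; limma p = 0.0297, adjusted p = 0.967; exact permutation p = 0.114). UBE2A did not overlap between VIM and VMAT either, but with 0 to 3 reads in VIM and 1, 162 and 3 in VMAT this rests on reads at the counting limit. The 2 members without overlap in normalized counts compare with 4.5% of all genes.

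**Figure D5:**
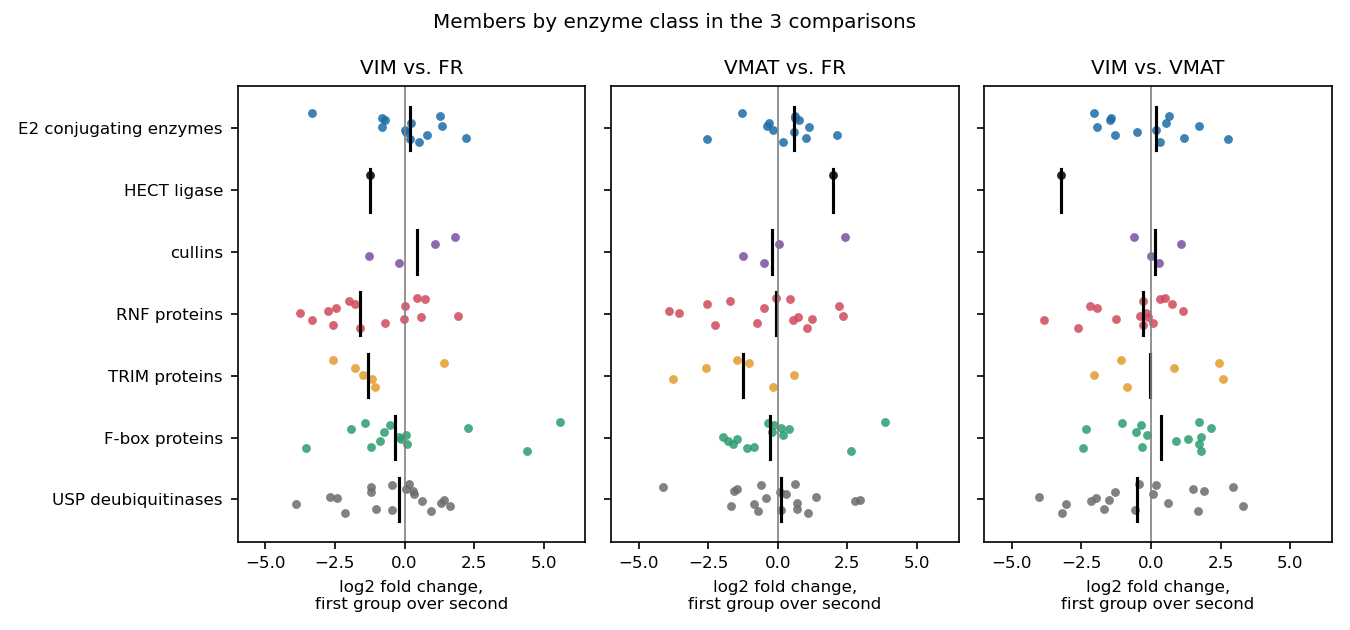
Log2 fold change (limma, first group over second) of each member by enzyme class in the 3 comparisons; black bars are class medians. In VIM vs. FR, FBXL15 at 5.58 stands farthest right, and the class medians run from -1.59 in RNF proteins to 0.45 in cullins.

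By class, the median log2 fold changes in VIM vs. FR were 0.21 for E2 enzymes, 0.45 for cullins, -1.59 for RNF proteins, -1.32 for TRIM proteins, -0.35 for F-box proteins and -0.19 for USP genes. In VMAT vs. FR they were 0.57, -0.22, -0.06, -1.25, -0.27 and 0.10. The RNF class had 10 of 15 members below 0 in VIM vs. FR and 8 of 15 in VMAT vs. FR, and the TRIM class 5 of 6 in both. Over all genes tested, 3903 of 7351 were below 0 in VIM vs. FR and 4127 of 8305 in VMAT vs. FR. Over the 2627 genes with a name these counts were 1522 and 1541. The SE of a single member's log2 fold change in VIM vs. FR had a median of 1.51. The part of the naming in these medians was not tested.

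Other genes of the ubiquitin system from a list made for this report, 66 with a name and a value, were read from the same fits. PIAS4 and PIAS1 were present in every library, at 1789 to 8231 and 1091 to 4359 normalized counts. UBB, a polyubiquitin gene, ranged from 73.2 to 2631. Limma called 0 of the 66 in each comparison. At an unadjusted p under 0.05 it gave 2 lower (MYLIP and OTUB1) in VIM vs. FR, 1 higher (SKP1) and 3 lower (BIRC3, BARD1 and OTUB1) in VMAT vs. FR, and none in VIM vs. VMAT, beside 3.78%, 3.62% and 2.98% of all genes. DESeq2 called 3 higher and 0 lower in VIM vs. FR, 2 higher and 1 lower in VMAT vs. FR, and none in VIM vs. VMAT, beside 6.91%, 4.3% and 3.93% of all genes.

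SKP1 bears on the members because it joins CUL1 to F-box proteins, but it was picked from the list by no rule set beforehand. SKP1 was at 1.12 to 3.23 normalized counts in the 5 FR libraries, at 49.8 to 193 in the 3 VMAT libraries and at 2.46, 385, 3.62 and 286 in VIM. No FR library was above the value of 3 reads, which is 1.51 to 3.43 normalized counts in FR. All VMAT libraries lay above all FR libraries, and VIM replicates 1 and 3 were about as low as FR. Results for SKP1 with a library left out are not given here. DESeq2 gave an adjusted p of 0.000999 for VMAT against FR and of 0.00259 for VIM against FR, and limma gave unadjusted p values of 0.0438 and 0.103.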

How the data were processed

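RNA of 12 pools of in vitro matured horse oocytes (4 VIM, 3 VMAT, 5 FR) was sequenced by the authors from 3′-end libraries with unique molecular identifiers. Per the study's methods and processing notes, reads were trimmed with Trim Galore, mapped to EquCab3.0 with STAR, collapsed with UMI-tools and counted with RSEM; Ensembl identifiers are used as deposited. The deposited values are a signal: counts divided by the DESeq2 size factor of each library. Dividing by the smallest step of each library recovered whole reads for 100.0% of values (within 0.01), 1636620 to 12166950 per library; 16 of 11425 genes were at 0 throughout. No sequences or coordinates were used here, and 1 member is counted but not reported here by name.

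Names came from gene lists of the study, 3 members by position in shortened lists. The members and lists were chosen with earlier results of these data known. The main test was planned for the deposited values, which are scaled counts, and so differs from the count test the authors used, although whole reads could be recovered. It was limma 3.58.1 (lmFit, eBayes with trend, two-sided) on log2(normalized count + 1), within the 2 groups compared. It ran over genes above 0 in at least as many libraries as the smaller group, with Benjamini-Hochberg adjustment over all of them. A gene was differentially expressed (DE) when the adjusted p was 0.05 or less and the log2 fold change 1 or more either way. Fold changes on this scale understate those of low genes. Alternatives were edgeR 4.0.16 (quasi-likelihood) and DESeq2 1.42.0 on the recovered reads (R 4.3.3), pseudocounts 0.5 and 10, other filters and scalings, all samples in 1 fit, the replicate number as a block, and each library left out. Single members also had an exact permutation test (two-sided, unadjusted, difference of mean log2 values). The scripts were tested on simulated data with large changes and a smaller spread between replicates than here. This checks the code and not the power of the tests in these libraries. Replicates were compared by chi-square over genes, and none were near-identical. Members were named by rule: the 3 highest medians per class, the 4 smallest limma p values per comparison, those called by any tool, those without overlap and at least 4-fold apart, the 3 most and least variable with a median of at least 100, and close paralogs. Others, such as UBE2S, UBE2K, CUL2, FBXO5, TRIM15, USP7 and USP39, met no rule and were named with their values known. This is said beside only some of them.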

Additional observations from a re-analysis of the deposited data

Results flagged for a closer look

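For the 35 members named by rule, and for depth and the number of members at 30 or more, the VIM and FR libraries were searched, a group at a time, for 1 that stood far from the rest (Dixon's 95% value). This flagged a library in 13 of 74 groups searched, where chance would give 3.7 for normally distributed values of members not chosen by their values. Neither holds here, since counts are skewed and some members were named for their spread or their p, so the 13 is not read against that number. Of these values, 7 belonged to FR replicates 1 and 4: RNF10 at 3299, USP1 at 2896, FBXL15 at 444 and FBXO25 at 952 in FR replicate 1, and TRIM24 at 1603, FBXO38 at 228 and RNF40 at 731 in FR replicate 4. The other FR values were RNF126 at 2267 in replicate 3 and USP48 at 1231 in replicate 5. In VIM they were FBXO25 at 756 in replicate 1, RNF40 at 258 in replicate 3, and USP48 at 31.3 and USP46 at 556 in replicate 4. All 13 were the highest library of their group.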

How the results depend on the processing

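No member that a tool called changed direction under the alternatives run. The median log2 fold change of members in VMAT vs. FR, a value with no test, turned from -0.15 to 0.09 without VMAT replicate 3 and to 0.03 without FR replicate 4. The count of DE members stayed at 0 in every comparison under the alternatives run, libraries left out included, except by DESeq2, which called 2 members for VIM and 1 for VMAT against FR. DESeq2 with each library left out, added after seeing the data, called 1 to 6 members in VIM vs. FR, 0 to 4 in VMAT vs. FR and 0 to 3 in VIM vs. VMAT; the 6 came without VIM replicate 1. The same fits called 427 to 578, 221 to 707 and 250 to 647 of all genes (508, 357 and 300 with every library). The count of members at an unadjusted p under 0.05 in VIM vs. FR (5) was 3 by DESeq2, 3 by edgeR, 1 by eBayes without trend and 3 without a filter, and 2 to 8 with a library left out. In VMAT vs. FR (5) it was 2 by DESeq2, 1 by edgeR, 2 by eBayes without trend and 2 with quantile normalization, and 2 to 7 with a library left out. In VIM vs. VMAT (2) it was 7 by DESeq2, 0 by edgeR, 0 by eBayes without trend and 1 without a filter, and 0 to 4 with a library left out. The cause was not tested. Median log2 fold changes of members ranged from -0.63 to -0.14, from -0.26 to 0.09 and from -0.51 to -0.13 with a library left out.

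With the replicate number as a block, the counts at an unadjusted p under 0.05 were, with the comparisons in the order above, 2, 3 and 2. Deviations of same-numbered libraries from their group means correlated at -0.058 to 0.026 over 10 pairs, and those of other pairs at -0.0619 to 0.0985. With replicates that vary this much, such values cannot decide whether the numbers mark a pairing. The paper states that the oocytes of FR and VMAT were matured together. Of the single members' values, 283 kept their direction and side of the threshold, and 3 passed it by DESeq2 alone (UBE2A, USP48 and TRIM2). Finding the same families through a reference names table was not run, since the table given pairs no identifier of this kind. Precision is limited by 3 to 5 pools a group and, in the shallow libraries, by members with fewer than 10 reads.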
